A study of Mus musculus with 6 samples.

Results

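Endothelial cells line the capillaries of the pancreatic islet, and 35 genes known for their roles in these cells were followed through islet RNA of a beta cell knockout and its control. The members were the rows of the deposited table whose symbol equalled a name on a fixed list of junction proteins, surface receptors, secreted factors, transcription factors and signalling proteins of endothelium. All 35 of 35 were found among the 16547 genes of the table, and all 35 were above 0 in every library and entered the test over 15962 genes. The list was drawn up with earlier results of these data known, so counts over its members are given as descriptions beside the same counts over all genes, with no test of the list.

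The study sequenced RNA of islets from C57BL/6 mice aged 11 to 12 weeks, in 2 groups of 3 libraries. Control islets (WT) carried Kcnj11 fl/fl, a floxed allele. Knockout islets (bKO, labelled βKcnj11 -/-) lacked Kcnj11, the gene of the potassium channel pore Kir6.2, in beta cells. The labels name neither the Cre driver of the knockout nor whether controls carried Cre. All islets were picked by hand after collagenase digestion and kept in RPMI medium for 2 days before extraction, a step that both groups share. Nothing in the labels ties the 3 libraries of either group to separate mice. The p-values therefore measure the spread between these libraries, which may be technical.

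Islets are among the most densely vascularised parts of the pancreas, and their capillaries are fenestrated, which lets hormones pass quickly into the blood. Beta cells secrete VEGF-A, which endothelial cells read through the receptor encoded by Kdr. Endothelial identity is held by transcription factors of the ETS family, such as Erg and Ets1, and of the SoxF family, Sox7, Sox17 and Sox18. Junctions are built around VE-cadherin, the product of Cdh5, and PECAM-1. The islet library is a mixture of endocrine, vascular, immune and exocrine cells, so more endothelial cells and more RNA per endothelial cell cannot be told apart here.

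Values are FPKM, fragment numbers scaled to transcript length and to the size of the library. The spacing of low FPKM values put the depth at about 23500000 to 27800000 fragments in WT and 26500000 to 41600000 in bKO. Kcnj11 was at 19.7, 24.7 and 25.4 FPKM in WT 1, WT 2 and WT 3, against 3.45, 5.31 and 3.51 in bKO 1, bKO 2 and bKO 3, so each library matched its label. The libraries of bKO replicates 1 and 3 were nearly alike. Their squared difference was 1.68 times counting error, against 16.8 to 109 times in the other 14 pairs, and their correlation across genes was 0.9986. Whether they came from 1 source is not given, and a fit that takes their average as a single sample is given beside each call. The defining endothelial genes Pecam1 and Cdh5 were detected in every library, the lowest values being 19.3 and 17.9 FPKM. WT replicate 1 stood apart by its low acinar content, described below with the other cell types.

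The sequences upstream of the start sites are shown for the 2 members that passed the test, Cd34 and Egfl7, and for Robo4 and Tie1, which have the next smallest p among members with a window. Each window runs from 250 bases before to 50 bases after the start, from RefSeq on GRCm38.p6, 5′ to 3′ on the strand of the gene. Capitals mark AGGAAG or CGGAAG, cores bound by ETS factors, and ACAATG, a core bound by SOX factors, on either strand. The Cd34 window lies at chr1:194938571-194938870 on the plus strand, the first of 3 Egfl7 windows at chr2:26580833-26581132 on the plus strand, the Robo4 window at chr9:37401722-37402021 on the plus strand and the Tie1 window at chr4:118489800-118490099 on the minus strand.
Cd34: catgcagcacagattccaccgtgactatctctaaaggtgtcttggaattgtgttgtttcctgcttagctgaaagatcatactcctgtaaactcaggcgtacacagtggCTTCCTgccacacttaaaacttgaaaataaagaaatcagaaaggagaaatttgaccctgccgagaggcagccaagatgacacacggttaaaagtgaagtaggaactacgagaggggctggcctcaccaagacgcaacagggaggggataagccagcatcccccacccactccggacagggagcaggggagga
Egfl7: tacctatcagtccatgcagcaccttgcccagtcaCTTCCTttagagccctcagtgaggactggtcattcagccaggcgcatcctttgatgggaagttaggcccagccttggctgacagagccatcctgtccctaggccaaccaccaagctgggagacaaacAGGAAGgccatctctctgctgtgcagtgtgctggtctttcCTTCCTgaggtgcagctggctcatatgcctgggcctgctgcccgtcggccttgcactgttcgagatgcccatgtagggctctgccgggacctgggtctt
Robo4: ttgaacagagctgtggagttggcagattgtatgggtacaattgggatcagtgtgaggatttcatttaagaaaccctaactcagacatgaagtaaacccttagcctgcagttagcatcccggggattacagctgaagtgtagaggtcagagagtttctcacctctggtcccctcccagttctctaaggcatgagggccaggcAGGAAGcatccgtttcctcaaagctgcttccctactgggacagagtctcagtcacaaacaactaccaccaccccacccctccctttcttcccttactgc
Tie1: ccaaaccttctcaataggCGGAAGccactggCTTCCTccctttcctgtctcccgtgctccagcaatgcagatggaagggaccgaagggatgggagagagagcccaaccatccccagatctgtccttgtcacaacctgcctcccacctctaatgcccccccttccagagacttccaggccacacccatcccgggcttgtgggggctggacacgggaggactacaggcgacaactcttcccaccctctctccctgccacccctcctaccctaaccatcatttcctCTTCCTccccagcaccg

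The Cd34 and Robo4 windows each hold 1 AGGAAG, the first Egfl7 window holds 3, and the Tie1 window holds 2 together with 1 CGGAAG. The other Egfl7 windows, not printed, hold 2 and 0 AGGAAG. Windows were found for 15 of the 35 members, 20 windows in all. AGGAAG was in 55% of these 20 windows and in 35.4% of 32851 windows of the table. CGGAAG was in 10% against 16.9%, and ACAATG in 5% against 12.6%. The motifs do not overlap one another in the windows printed. A match of letters is a description of the sequence and not of binding. The members without a window are Pecam1, Cdh5, Esam, Icam2, Cd93, Mmrn2, Ecscr, Plvap, Lyve1, Ptprb, S1pr1, Aplnr, Ramp2, Vwf, Sox7, Sox17, Sox18, Ets1, Nos3 and Arhgef15.

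The comparison of bKO with WT asks which endothelial transcripts differ when beta cells lack the channel. Most members lay higher in bKO islets by a similar factor. Of the 35 members, 34 had a positive log2 difference and 1, Ramp2, a negative one, while 47% of all tested genes had a positive difference. The median log2 difference of the members was 0.38, against -0.008 over all genes. On the scale of deposited FPKM the median fold of the group means was 1.45 for the members and 1.05 for all genes. In 31 of 35 members the fold lay between 1.2 and 1.8.

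The limma test with Benjamini-Hochberg adjustment over all 15962 genes called 2 members higher, Cd34 and Egfl7, and 0 lower. It called 0.0626% of all genes higher, 10 genes, and 0.132% lower, 21 genes. Omitting the quantile step gave 19 higher and 20 lower genes, and scaling to an equal sum without hormones and acinar enzymes gave 14 and 17. With bKO replicates 1 and 3 averaged, and without bKO replicate 1 or bKO replicate 3, 0 genes and 0 members were called. Both members stayed called without WT replicate 1, and 0 members were called without WT replicate 2, WT replicate 3 or bKO replicate 2. At an unadjusted p below 0.05, 26 members were higher and 1 was lower, against 5.05% and 9.17% of all genes. On deposited FPKM every bKO library lay above every WT library in 32 members and below in 1, where 15.3% and 6.48% of all genes did so. With median of ratios scaling, 29 members and 8.68% of all genes were higher with no overlap. The summed FPKM of the 35 members ran from 323 to 350 in WT and from 463 to 471 in bKO.

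**Figure D1:**
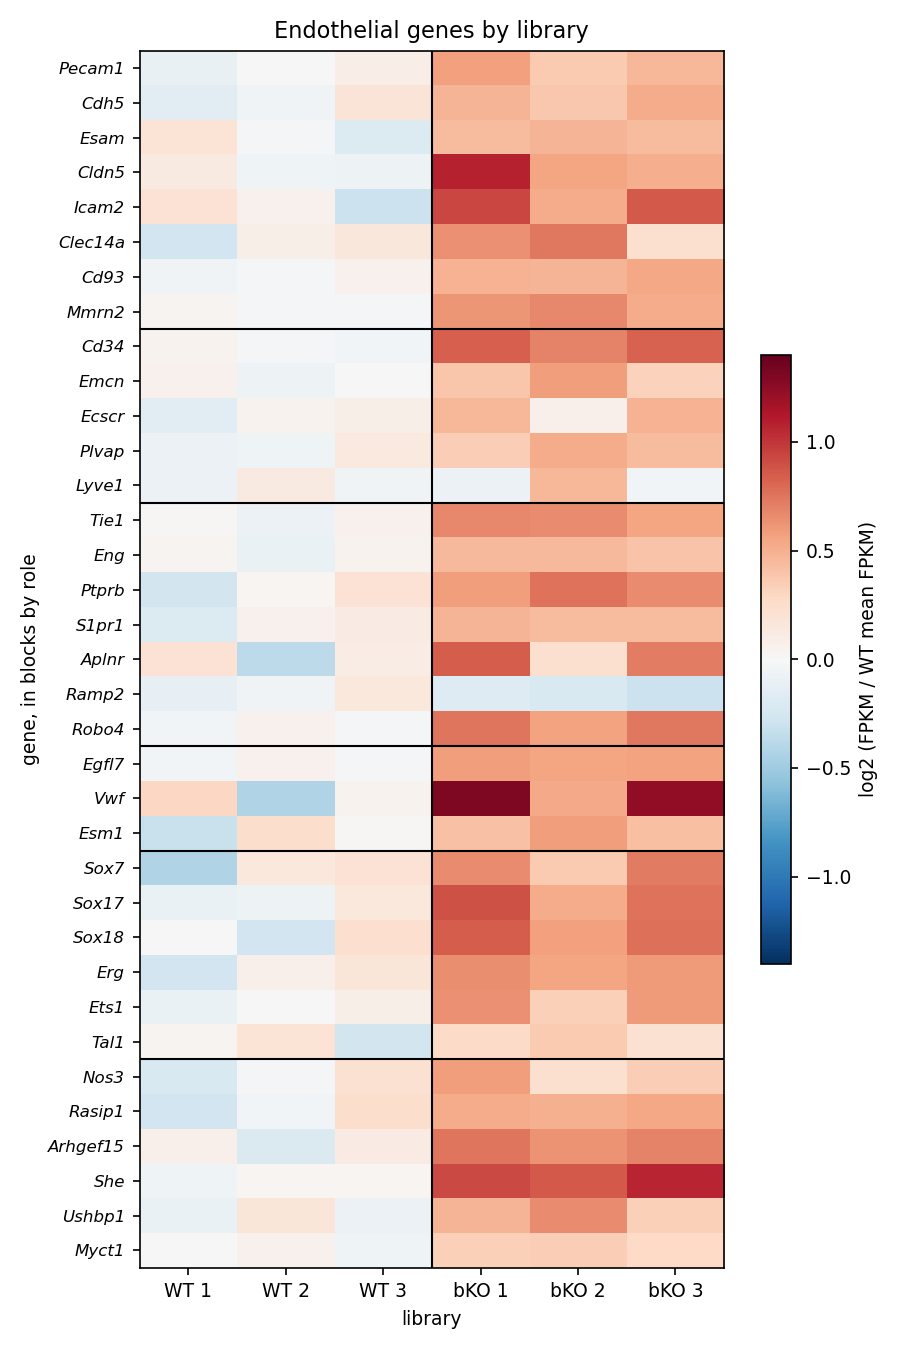
Heat map of the 35 genes (rows, in blocks by role from junction proteins at the top to signalling proteins at the bottom) in the 6 libraries (columns), coloured by log2 of FPKM over the WT mean. The bKO columns are red in nearly every row, Ramp2 is blue in all 3 of them, and Lyve1 is red in bKO replicate 2 only.

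Junction and adhesion proteins hold the vessel wall together, and all 8 of them lay higher in every bKO library than in any WT library. None of the 8 passed the adjusted test, and 7 had an unadjusted p below 0.05. Over all genes, 15.3% lay higher without overlap and 5.05% were higher at that unadjusted p. Pecam1, which encodes the adhesion protein PECAM-1, was at 19.3, 20.9 and 22.2 FPKM in WT 1, WT 2 and WT 3, against 30.9, 26.8 and 28.6 in bKO 1, bKO 2 and bKO 3. Its lowest bKO library was 1.21 times its highest WT library. The mean was 20.8 ± 1.46 FPKM in control WT libraries, against 28.8 ± 2.02 in bKO (SD, n = 3 each), a log2 difference of 0.39 (SE 0.07, limma adjusted p = 0.1).

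Cdh5, the gene of VE-cadherin, was at 17.9, 19.2 and 22.4 FPKM in control WT libraries, against 27.6, 25.8 and 28.4 in bKO. The groups did not overlap, and bKO replicate 2 was the lowest of its group for both genes. The log2 difference of Cdh5 was 0.38 (SE 0.08, limma adjusted p = 0.123). Mmrn2, a matrix protein that endothelial cells deposit, was at 4.60, 4.44 and 4.42 FPKM in control WT libraries, against 6.89, 7.13 and 6.45 in bKO. The WT values of Mmrn2 were close together, with a SD of 0.0994, and its log2 difference was 0.44 (SE 0.07, limma adjusted p = 0.0815). Cd93, a lectin-like receptor that binds Mmrn2, was at 5.91, 6.04 and 6.38 FPKM in control WT libraries, against 8.56, 8.49 and 8.92 in bKO. Its fold of means was 1.42, near that of Mmrn2, which was 1.52 (limma adjusted p = 0.0968 for Cd93).

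The other junction genes had folds of means from 1.37 to 1.72. Icam2, a ligand of leukocyte integrins, had the largest, from 3.13 ± 0.536 to 5.39 ± 0.794 FPKM (SD, n = 3 each). Esam, an adhesion molecule of tight junctions, was at 17.2 ± 2.27 and 23.5 ± 0.406 FPKM. Cldn5, the endothelial claudin, was low, at 1.17 ± 0.096 and 1.94 ± 0.445 FPKM, and 2.46 FPKM in bKO replicate 1 set its spread. Clec14a, a lectin of the vessel surface, was lower still at 0.238 ± 0.0364 and 0.348 ± 0.0616 FPKM, about 20 fragments in WT replicate 1. For Icam2, Esam, Cldn5 and Clec14a limma gave adjusted p from 0.142 to 0.533.

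Cd34 stood out among the sialomucins and luminal surface proteins, which face the blood. Cd34 encodes a sialomucin of capillary endothelium and of blood progenitors. It was at 7.16, 6.84 and 6.70 FPKM in WT 1, WT 2 and WT 3, against 12.3, 11.2 and 12.2 in bKO 1, bKO 2 and bKO 3. The spread within groups was small beside the gap, and the lowest bKO library was 1.56 times the highest WT library. Cd34 rose from 6.90 ± 0.235 to 11.9 ± 0.60 FPKM (SD, n = 3 each), 1.72-fold, with a log2 difference of 0.63 (95% interval 0.48 to 0.78, limma adjusted p = 0.0306). With bKO replicates 1 and 3 averaged the limma adjusted p of Cd34 was 0.27. An antisense gene, Gm16897, overlaps an exon of Cd34 in the GENCODE annotation. Gm16897 was between 0.386 and 0.686 FPKM in all libraries, and the strand of the counting is not given in the sources used here.

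Plvap forms the diaphragms of fenestrae and was among the most abundant members. It was at 33.2, 33.7 and 38.7 FPKM in control WT libraries, against 44.7, 50.3 and 48.0 in bKO, without overlap. The log2 difference was 0.39 (SE 0.07, limma adjusted p = 0.0968). Emcn, the sialomucin endomucin, was at 29.4, 27.0 and 28.5 FPKM in control WT libraries, against 37.0, 42.6 and 35.5 in bKO (limma log2 difference 0.37, adjusted p = 0.127). For Plvap and Emcn the highest library was bKO replicate 2, which was the highest bKO library in 12 of the 35 members and the lowest in 19.

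Ecscr and Lyve1 overlapped between groups. Ecscr, a surface protein of endothelial migration, was at 11.4, 13.1 and 13.4 FPKM in control WT libraries, against 17.5, 13.3 and 17.7 in bKO, so that bKO replicate 2 lay within the WT range (limma adjusted p = 0.384). Lyve1, a hyaluronan receptor of lymphatic endothelium that some macrophages also carry, was at 6.58, 7.59 and 6.75 FPKM in control WT libraries, against 6.57, 9.63 and 6.80 in bKO. Here bKO replicate 2 was high, bKO replicate 3 lay inside the WT range and bKO replicate 1 lay just under its lowest value. The log2 difference of Lyve1 was 0.03 (95% interval -0.31 to 0.36, limma adjusted p = 0.947), and it turned to -0.13 without bKO replicate 2 and to -0.01 without WT replicate 1.

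**Figure D2:**
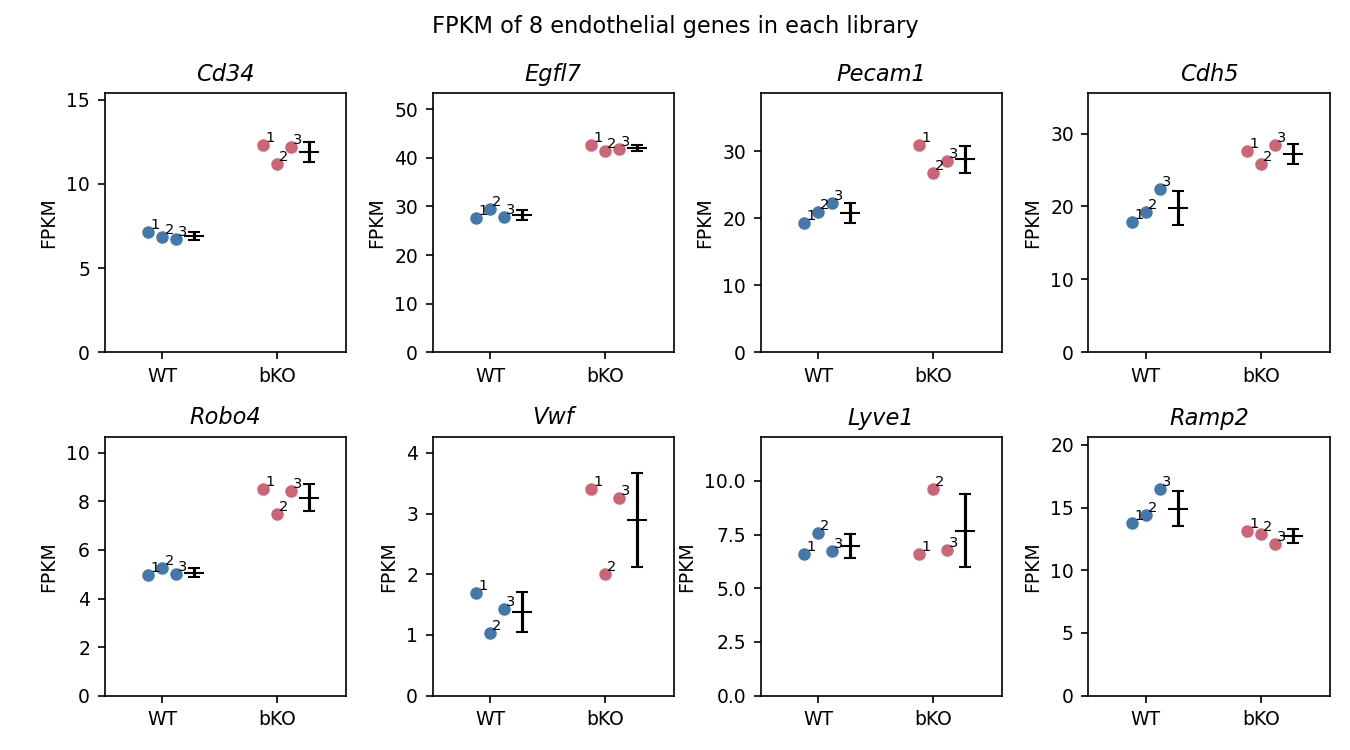
FPKM (y axis, from 0) of 8 members in each library, with replicate numbers beside the points and bars for the mean and SD of each group (n = 3). Cd34, Egfl7 and Robo4 show tight groups far apart, Lyve1 overlaps, and the 3 bKO libraries of Ramp2, at 13.1, 12.9 and 12.1, lie below all WT libraries.

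Receptors of endothelial cells had 6 of 7 members higher without overlap and Ramp2 lower, where 15.3% and 6.48% of all genes did so. Tie1, the orphan receptor of the angiopoietin system, was at 5.34, 4.96 and 5.48 FPKM in control WT libraries, against 8.40, 8.29 and 7.69 in bKO. Its log2 difference was 0.47 (SE 0.07, limma adjusted p = 0.0778). Robo4, a guidance receptor that stabilises vessels, was at 4.95, 5.27 and 4.99 FPKM in control WT libraries, against 8.52, 7.50 and 8.44 in bKO. Its lowest bKO library was 1.42 times its highest WT library. The log2 difference of Robo4 was 0.51 (SE 0.07, limma adjusted p = 0.07), and the gene passed without quantile normalization (limma adjusted p = 0.0483). With bKO replicates 1 and 3 averaged the limma adjusted p of Robo4 was 0.409.

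Eng, the TGF-beta co-receptor endoglin, was at 34.8, 31.6 and 35 FPKM in control WT libraries, against 46.4, 46.4 and 44.6 in bKO (limma log2 difference 0.38, adjusted p = 0.0778). Both groups were narrow, and the fold of means was 1.36. The exons of Eng overlap those of Fpgs on the other strand, which was between 9.84 and 11.7 FPKM in all libraries. S1pr1, the receptor of the barrier lipid sphingosine 1-phosphate, was at 12.8 ± 1.46 FPKM in control WT libraries, against 17.5 ± 0.227 in bKO (SD, n = 3 each). Ptprb, the phosphatase that restrains the angiopoietin receptor, was at 1.09 ± 0.169 and 1.73 ± 0.0971 FPKM. Aplnr, the apelin receptor, was at 2.48 ± 0.495 and 3.81 ± 0.813 FPKM, with 2.85 FPKM in WT replicate 1 just under 2.90 in bKO replicate 2. The limma adjusted p of S1pr1, Ptprb and Aplnr was 0.14, 0.239 and 0.352.

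Ramp2, which carries the receptor of adrenomedullin to the cell surface, was the member that went the other way. It was at 13.8, 14.4 and 16.5 FPKM in WT 1, WT 2 and WT 3, against 13.1, 12.9 and 12.1 in bKO 1, bKO 2 and bKO 3. The groups did not overlap, but the highest bKO and lowest WT values were close. The mean was 14.9 ± 1.38 FPKM in control WT libraries, against 12.7 ± 0.551 in bKO (SD, n = 3 each), a log2 difference of -0.28 (95% interval -0.45 to -0.11, limma adjusted p = 0.17). Calcrl encodes the receptor that Ramp2 accompanies, and it was at 1.64, 1.47 and 1.74 FPKM in control WT libraries, against 2.48, 2.16 and 2.71 in bKO. Calcrl had a log2 difference of 0.31 (limma adjusted p = 0.175), so neither gene of this pair passed while their signs differed. Under all 15 alternative settings the log2 difference of Ramp2 stayed between -0.32 and -0.21.

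Secreted products were higher without overlap in all 3 members, and Egfl7 passed. Over all genes, 15.3% were higher without overlap and 0.0626% were called higher. Egfl7 encodes an extracellular protein that guides vessel assembly. It was at 27.6, 29.5 and 27.8 FPKM in WT 1, WT 2 and WT 3, against 42.6, 41.4 and 41.9 in bKO 1, bKO 2 and bKO 3. Its 3 bKO libraries agree within a SD of 0.613 FPKM, and the lowest was 1.4 times the highest WT library. Egfl7 rose from 28.3 ± 1.06 to 42.0 ± 0.613 FPKM (SD, n = 3 each), 1.48-fold, with a log2 difference of 0.50 (95% interval 0.38 to 0.62, limma adjusted p = 0.0306). For Egfl7, too, averaging the pair gave a limma adjusted p of 0.27. A protein-coding model, Gm20532, shares exon sequence with Egfl7 on the same strand in the GENCODE annotation and was not analysed here.

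Vwf, the gene of von Willebrand factor, which captures platelets, had the largest fold of the members at 2.09 and also a wide spread. It was at 1.69, 1.03 and 1.43 FPKM in control WT libraries, against 3.41, 2.00 and 3.26 in bKO. The value of bKO replicate 2 lay nearer to the WT range than to the other bKO libraries. The log2 difference was 0.60 (95% interval 0.22 to 0.99, limma adjusted p = 0.181). Esm1, the secreted proteoglycan endocan of sprouting cells, was at 25.1, 36.8 and 31.4 FPKM in control WT libraries, against 41.3, 46.5 and 41.7 in bKO. WT replicate 1 was the lowest for Esm1, and its log2 difference was 0.42 (SE 0.13, limma adjusted p = 0.241).

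Of the 6 transcription factors, all lay higher in bKO without overlap, 4 had an unadjusted p below 0.05, and 0 passed the adjusted test. Among all genes, 15.3% were higher without overlap and 5.05% were higher at that unadjusted p. Sox18 was at 5.63, 4.70 and 6.66 FPKM in control WT libraries, against 10.2, 8.43 and 9.65 in bKO. It had the largest log2 difference of the 3 SoxF genes, 0.57 (95% interval 0.28 to 0.87, limma adjusted p = 0.123). Sox17, which is used by arterial cells, was at 1.65, 1.68 and 1.95 FPKM in control WT libraries, against 3.27, 2.52 and 2.98 in bKO (limma log2 difference 0.41, adjusted p = 0.141). Sox7 was at 2.03 ± 0.448 FPKM in control WT libraries, against 3.05 ± 0.393 in bKO (SD, n = 3 each), with the lowest value, 1.51, in WT replicate 1 (limma adjusted p = 0.364). Without that library the log2 difference of Sox7 was 0.18, against 0.34 with it. The folds of means of the 3 genes lay between 1.51 and 1.67, and no difference between them was tested.

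Ets1, which lymphocytes use as well, was at 11.2, 12.0 and 12.7 FPKM in control WT libraries, against 18.7, 15.1 and 18.1 in bKO. Its log2 difference was 0.43 (SE 0.09, limma adjusted p = 0.127). Erg, the ETS factor most tied to endothelium, was at 3.35 ± 0.508 FPKM in control WT libraries, against 5.07 ± 0.173 in bKO (SD, n = 3 each; limma adjusted p = 0.183). Tal1, shared by endothelial and blood precursors, was near the lower end at 0.405 ± 0.0627 and 0.494 ± 0.0252 FPKM. Its log2 difference of 0.04 had a 95% interval from -0.10 to 0.18 (limma adjusted p = 0.753), on a scale that compresses genes below 1 FPKM.

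Among 6 intracellular signalling genes, all had positive differences and no overlap, and 4 had an unadjusted p below 0.05. The shares of all genes were 47% with a positive difference, 15.3% higher without overlap and 5.05% higher at that unadjusted p. She, an adaptor protein with an SH2 domain, was at 0.601, 0.640 and 0.639 FPKM in control WT libraries, against 1.19, 1.14 and 1.31 in bKO. Its fold of means, 1.94, was second to that of Vwf, and its lowest bKO library was 1.79 times its highest WT library. The log2 difference of She was 0.38 (SE 0.06, limma adjusted p = 0.0828), and She passed without quantile normalization (limma adjusted p = 0.0483). With bKO replicates 1 and 3 averaged the limma adjusted p of She was 0.4. Arhgef15 was at 1.01, 0.832 and 1.04 FPKM in control WT libraries, against 1.61, 1.48 and 1.56 in bKO (limma log2 difference 0.30, adjusted p = 0.118).

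Rasip1, which controls the opening of the vessel lumen, was at 4.01, 4.70 and 5.73 FPKM in control WT libraries, against 6.90, 6.78 and 7.03 in bKO (limma log2 difference 0.38, adjusted p = 0.23). Myct1, a membrane protein of endothelial cells, was at 3.44, 3.57 and 3.30 FPKM in control WT libraries, against 4.33, 4.37 and 4.18 in bKO. Both groups of Myct1 were narrow and its fold of means, 1.25, was among the smaller ones (limma adjusted p = 0.346). Ushbp1 was at 1 ± 0.106 and 1.41 ± 0.161 FPKM (limma adjusted p = 0.372). Nos3, the endothelial nitric oxide synthase, was at 1.47, 1.67 and 1.98 FPKM in control WT libraries, against 2.56, 2.00 and 2.17 in bKO. For Nos3 the gap between WT replicate 3 and bKO replicate 2 was 1.01-fold, and the log2 difference was 0.17 (95% interval -0.10 to 0.43, limma adjusted p = 0.524). It was 0.07 without WT replicate 1, 0.11 without bKO replicate 1 and 0.26 without WT replicate 3. The exons of Nos3 overlap those of Atg9b on the other strand, which ran from 1.17 to 3.58 FPKM in WT and from 1.98 to 4.22 in bKO. Antisense genes also overlap exons of Rasip1 (A030001D20Rik and Gm45437) and of Nos3 (Gm15587) in the GENCODE annotation, with no FPKM available for them.

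**Figure D3:**
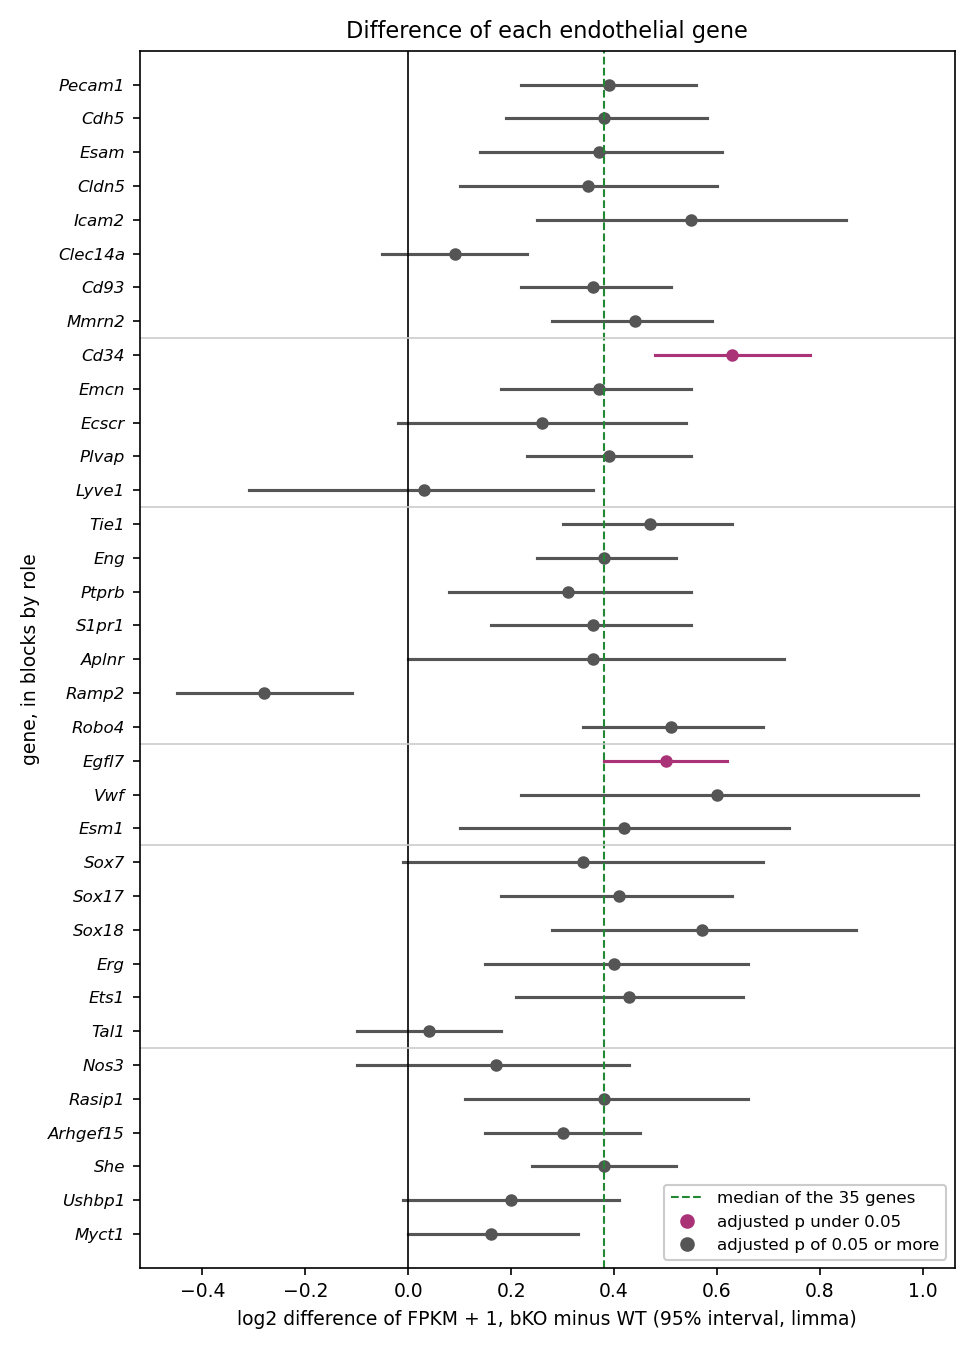
Log2 difference of FPKM plus 1, bKO minus WT, for the 35 genes in blocks by role (points, with 95% intervals from limma). Points sit around the dashed median of 0.38, Cd34 and Egfl7 are marked as past an adjusted p of 0.05, and Ramp2 lies alone below 0.

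Levels differed between the members far more than the folds did. Per transcript length, the highest means over the 6 libraries were 41.4 FPKM for Plvap, 39.8 for Eng, 37.1 for Esm1 and 35.2 for Egfl7. The lowest were 0.293 FPKM for Clec14a, 0.449 for Tal1 and 0.92 for She. The 12 members with a mean of at least 10 FPKM had a median fold of 1.37, and the 23 with a lower mean had one of 1.54. In 25 members with a single transcript of known length, the library with the fewest fragments held at least 100 in 19 and between 20 and 100 in 6.

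To see how members moved against one another, each log2 FPKM was set against the mean of the 35 genes in its library, a ratio that library scaling cannot move. Relative to the other members, 4 genes (11.4%) lay higher in all bKO libraries than in any WT library, and 2 (5.71%) lay lower. On deposited FPKM, a different scale, 15.3% and 6.48% of all genes did so. The share of all genes on the relative scale was not computed, so nothing is read from the counts. The higher genes were Cd34, with a mean shift of 0.24, She with 0.41, Arhgef15 with 0.15 and Robo4 with 0.14. Egfl7, the other gene that passed the test, shifted by 0.03 and overlapped, near the common difference. The lower genes were Ramp2, with a shift of -0.77, and Myct1 with -0.22. Lyve1 shifted by -0.42 through bKO replicates 1 and 3, at -0.11 and 0.01 against 0.47 to 0.71 in WT, while bKO replicate 2 was at 0.55. These shifts are descriptions, and with 3 libraries a group no test of them was made.

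**Figure D4:**
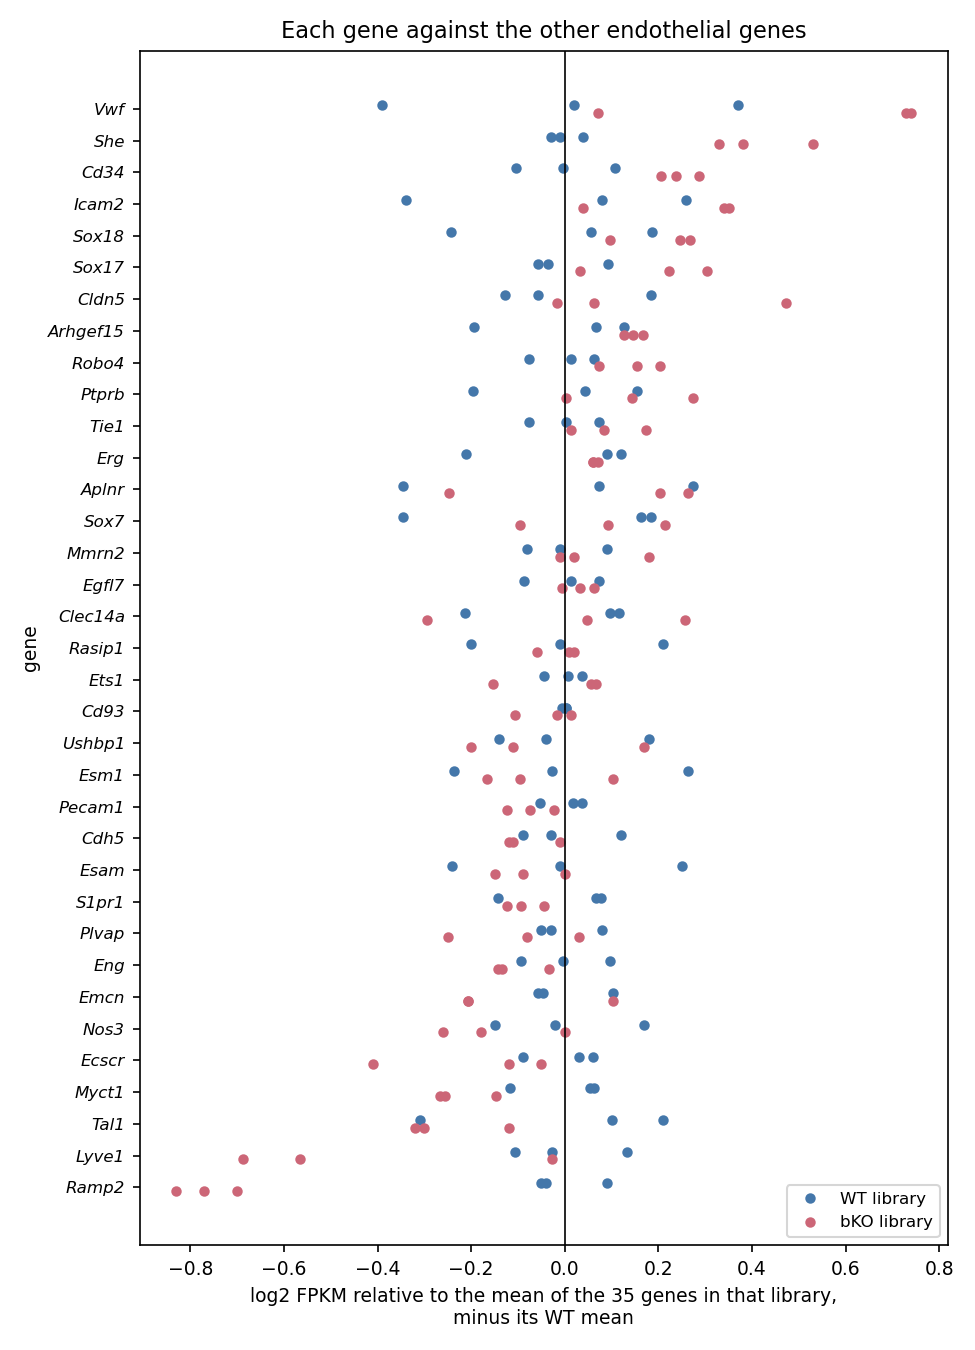
Log2 FPKM of each member relative to the mean of the 35 genes in the same library, with its WT mean set to 0 (x axis), for WT libraries (blue) and bKO libraries (red). She and Cd34 lie to the right in all bKO libraries, Ramp2 lies to the left with a mean shift of -0.77, and most other genes overlap.

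Further genes of the vessel wall gave a similar picture. Of 29 other endothelial genes in the table, 25 had positive differences, with a median of 0.28. Among these, Gpihbp1 was called higher, and 0 were called lower. Over all tested genes, 47% had a positive difference, with a median of -0.008, and 0.0626% were called higher and 0.132% lower. This list, too, was chosen with earlier results of these data known. Gpihbp1, which moves lipoprotein lipase across capillaries, was at 15.8, 14.3 and 15.0 FPKM in control WT libraries, against 28.8, 26.0 and 27.7 in bKO. It rose by a log2 difference of 0.77 (limma adjusted p = 0.0306, and 0.239 with bKO replicates 1 and 3 averaged). Its fold of mean FPKM was 1.83, below that of Vwf and She. Notch4, the endothelial Notch receptor, was at 4.68 ± 0.327 and 7.58 ± 0.445 FPKM for WT and for bKO, and Afap1l1, an actin-associated protein, at 3.04 ± 0.0254 and 4.35 ± 0.157 (SD, n = 3 each; limma adjusted p = 0.0822 and 0.111). The 4 genes with negative differences included Nostrin, which binds endothelial nitric oxide synthase, and Gpr182, a receptor of sinusoidal and lymphatic vessels. Nostrin was at 8.45, 7.21 and 7.60 FPKM in control WT libraries, against 6.65, 6.64 and 6.64 in bKO (limma log2 difference -0.27, adjusted p = 0.187), and Gpr182 had a log2 difference of -0.23 (limma adjusted p = 0.315). Nostrin and Gpr182 were singled out after their values were seen, as were Calcrl, Kdr, Flt1, Vegfa and Angpt2.

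Genes that mark kinds of vessel were called in 1 case, where 0.0626% of all genes were called higher and 0.132% lower. Over all tested genes, 47% had a positive difference, with a median of -0.008. Of 11 tested arterial and tip cell genes, 10 had positive differences, with a median of 0.28, and Dll4, a Notch ligand, was called higher. Dll4 was at 11.1, 11.1 and 11.3 FPKM in control WT libraries, against 17.5, 17.0 and 16.5 in bKO (limma log2 difference 0.49, adjusted p = 0.0314, and 0.27 with bKO replicates 1 and 3 averaged). Efnb2, an arterial ephrin, was at 5.94 ± 0.477 and 8.29 ± 1.09 FPKM, and Unc5b, a netrin receptor, at 11.3 ± 1.49 and 16.0 ± 2.8 (SD, n = 3 each; limma adjusted p = 0.23 and 0.315). All 7 venous genes had positive differences, with a median of 0.36 and 0 calls. The venous list shares Aplnr with the members, and the lymphatic list shares Lyve1 with them. The venous median was 0.19 without bKO replicate 1, 0.20 without WT replicate 2 and 0.23 with bKO replicates 1 and 3 averaged. Ephb4, the venous receptor of Efnb2, was at 5.08 ± 0.81 and 7.42 ± 1.16 FPKM and Nr2f2, the venous transcription factor, at 1.4 ± 0.13 and 1.94 ± 0.381 (limma adjusted p = 0.279 and 0.372). Of 5 tested lymphatic genes, 4 had positive differences, with a median of 0.15 and 0 calls, and the median was 0.07 without bKO replicate 2 and 0.09 without WT replicate 2. Flt4, the receptor of VEGF-C, was at 3.58 ± 0.409 and 5.41 ± 0.211 FPKM, while Prox1, which endocrine cells also express, was at 7.43 ± 0.0724 and 8.94 ± 0.94 and Pdpn, podoplanin, at 18.4 ± 5.09 and 22.5 ± 3.34 (limma adjusted p = 0.141, 0.458 and 0.63). Ccl21a, a chemokine of lymphatic vessels, was listed at 0 in 3 of the 6 libraries.

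In the VEGF and angiopoietin system, 10 of 13 genes had positive differences, with a median of 0.26 and 0 calls. The shares of all genes were 47% with a positive difference, 0.0626% called higher and 0.132% called lower. Kdr, Flt1 and Tek are also on the list of other endothelial genes, Angpt2 on the arterial and Flt4 on the lymphatic list. The counts of these lists are therefore not separate. Vegfa, which beta cells make in large amounts, was at 104, 100 and 93.0 FPKM in control WT libraries, against 107, 111 and 105 in bKO (limma log2 difference 0.09, 95% interval -0.10 to 0.28, adjusted p = 0.62). Its receptors Kdr and Flt1 were at 14.3 ± 3.06 and 10.6 ± 2.17 FPKM in control WT libraries, against 19.3 ± 1.51 and 15.4 ± 1.2 in bKO (SD, n = 3 each; limma adjusted p = 0.363 and 0.252). Pgf, placental growth factor, was at 9.40, 10.5 and 10.1 FPKM in control WT libraries, against 20.7, 14.8 and 20 in bKO. Its log2 difference was 0.74 (limma adjusted p = 0.0968). The limma adjusted p of Pgf was 0.0489 without bKO replicate 2, from 0.114 to 0.419 without each of the other 5 libraries, and 0.414 with bKO replicates 1 and 3 averaged. Nrp1, a co-receptor of VEGF-A, was at 8.30 ± 0.182 and 11.3 ± 0.577 FPKM (limma adjusted p = 0.107). Vegfb, a family member tied to fatty acid handling, was at 27.8, 25.7 and 27.3 FPKM in control WT libraries, against 20.3, 22.5 and 23.6 in bKO (limma log2 difference -0.33, adjusted p = 0.129). Angpt2, the ligand of vessel remodelling, was at 15.0 ± 3.06 and 15.1 ± 1.31 FPKM, and the sign of its log2 difference of -0.05 turned without quantile normalization (limma adjusted p = 0.942) and without WT replicate 2 or 3.

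Lists of markers of other cells were compared with the endothelial genes library by library. Over all tested genes, 47% had a positive difference. Relative to the WT mean, the median of the 35 members was -0.05, 0.01 and 0.05 in WT 1, WT 2 and WT 3, against 0.38, 0.34 and 0.39 in bKO 1, bKO 2 and bKO 3. The acinar median over 12 genes was -2.64, 1.15 and 1.43 in WT and 1.89, 0.71 and 1.90 in bKO, and the summed acinar FPKM ran from 1328 to 19961 in WT and from 11647 to 26396 in bKO. WT replicate 1 and bKO replicate 2 had the lowest acinar and the lowest endothelial median of their groups, by wide steps for the acinar list and by 0.1 or less for the endothelial genes. WT replicate 1 was the lowest WT library in 21 of the 35 members, and bKO replicate 2 the lowest bKO library in 19. For 10 stellate and fibroblast genes, all with positive differences, the median was 0.76, -0.33 and -0.37 in WT and 0.92, 0.20 and 0.89 in bKO. Their summed FPKM ran from 238 to 580 in WT and from 381 to 697 in bKO. Of these, Pdgfra, Lum and Col6a3 had limma adjusted p of 0.263, 0.331 and 0.357. For 12 pericyte and smooth muscle genes, all positive, the median was 0.35, -0.16 and -0.21 in WT and 0.48, 0.02 and 0.49 in bKO, with summed FPKM from 87.7 to 151 and from 119 to 163. Kcnj8 and Abcc9, the vascular KATP channel, and Mcam, shared with endothelium, had folds of means of 1.54, 1.46 and 1.43 (limma adjusted p = 0.221, 0.23 and 0.25). In both of these lists WT replicate 1 lay above bKO replicate 2, which was not so for the endothelial members. With all libraries the median difference was 1.51 for the acinar list, 0.65 for the stellate list, 0.38 for the pericyte list and 0.38 for the endothelial members. Without WT replicate 1 the median difference was 0.23 for the acinar list, 1.01 for the stellate list, 0.57 for the pericyte list and 0.34 for the endothelial members. The part of these cells in the endothelial result was not tested.

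Blood cells carry some of the members, such as Pecam1, Cd93, Cd34 and Ets1, and their part in the endothelial result was not tested. Their own markers gave 0 calls, where 0.0626% of all genes were called higher and 0.132% lower. With shares this small, nothing is read from that count. Over all tested genes, 47% had a positive difference. Of 10 macrophage and leukocyte genes in the table, 9 had negative differences, with a median of -0.16 and 0 calls, and summed FPKM ran from 82.9 to 103 in WT and from 66.5 to 88.4 in bKO. Cd68, a macrophage lysosomal protein, was at 17.3, 20.7 and 23.0 FPKM in control WT libraries, against 14.5, 12.6 and 15.0 in bKO (limma log2 difference -0.57, adjusted p = 0.107), while Laptm5, a lysosomal protein of leukocytes, and Cd14, the positive gene of the list, had limma adjusted p of 0.282 and 0.418. Pf4, a platelet chemokine, was at 11.8 ± 2.5 and 11.6 ± 1.18 FPKM (SD, n = 3 each; limma adjusted p = 0.792). Platelet and erythrocyte genes as a list, 5 in the table and 4 tested, had a median difference of -0.05, with 0 calls, and summed to 10 to 14.9 FPKM in control WT libraries, against 12.9 to 14.8 in bKO. In the same list Hbb-b1, a haemoglobin gene of red cells, lay higher in every bKO library, at 0.1, 0.192 and 0.455 FPKM for WT against 0.588, 1.37 and 1.02 for bKO (limma log2 difference 0.61, adjusted p = 0.219). Hbb-b1 was named after its values were seen, and its part in the endothelial result was not tested. The hormone genes take a large share of islet RNA, and insulin transcripts made up 29.8% to 37.4% of all FPKM in control WT libraries, against 26.4% to 33.5% in bKO. The beta cell list summed to 271172 to 359591 FPKM in control WT libraries, against 216844 to 293514 in bKO, with 8 of 10 genes negative. Its median difference was -0.06, but -0.32 without quantile normalization. It was -0.37 with median of ratios scaling and -0.37 with an equal sum without hormones and acinar enzymes. With all libraries rescaled to an equal sum without hormone and acinar genes, the median difference of the members was 0.39, with 31 members higher without overlap against 9.06% of all genes. The duct list, with 7 of 8 genes positive, and the alpha, delta and PP cell list, with 3 of 8, had medians of 0.19 and -0.03 and 0 calls each, and the second median was 0.08 without quantile normalization. The duct median was 0.09 without WT replicate 1 or WT replicate 2.

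**Figure D5:**
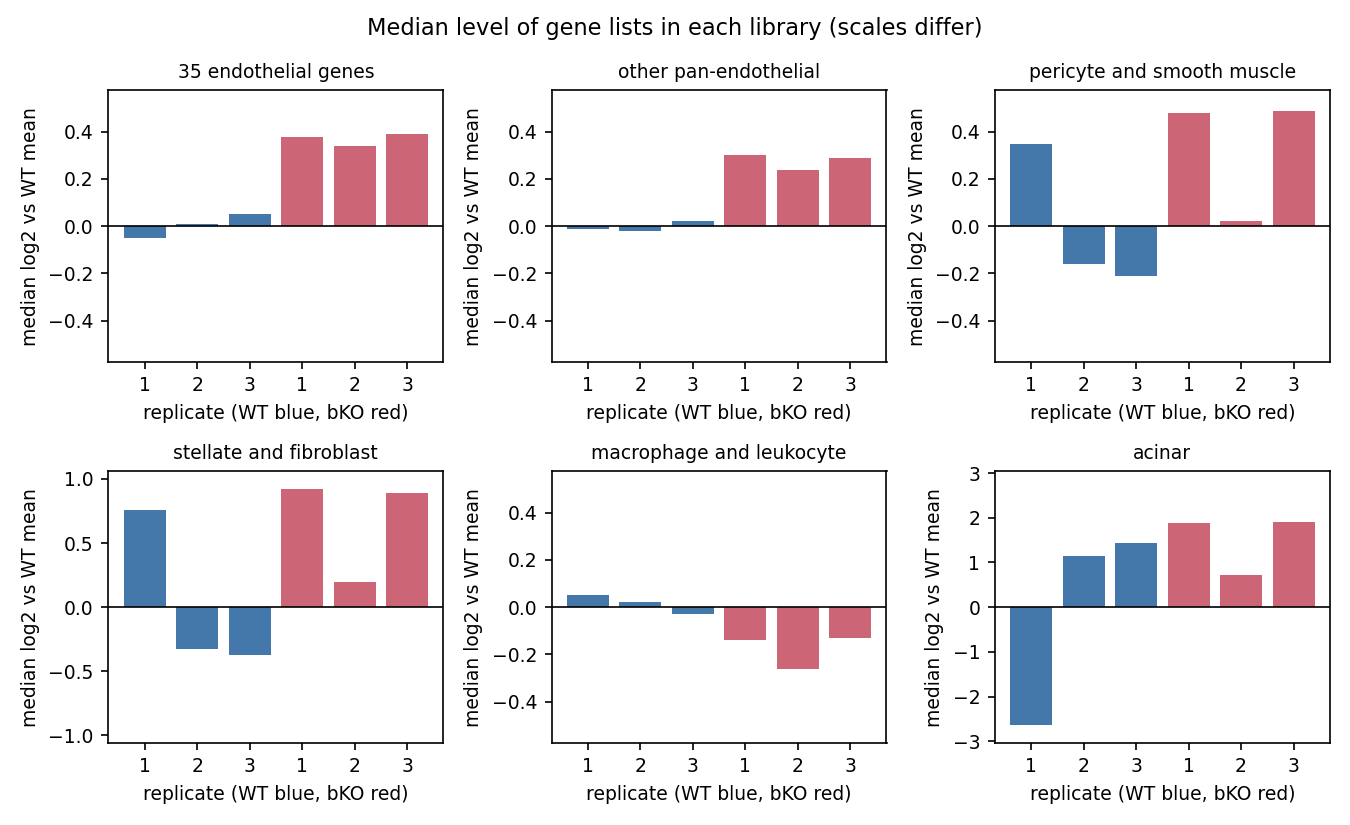
Median log2 level of 6 gene lists in each library relative to the WT mean (bars, WT blue and bKO red, y scales differ between panels). The endothelial lists are near 0 in WT and raised in all 3 bKO libraries, while the pericyte, stellate and acinar lists vary with single libraries and the macrophage list lies lower in bKO.

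The calls of Cd34 and Egfl7 depend on the libraries in the fit, while the size of their differences hardly does. Without WT replicate 1 both were called. Without WT replicate 2, WT replicate 3, bKO replicate 1, bKO replicate 2 or bKO replicate 3, the limma adjusted p was 0.172, 0.096, 0.3, 0.0636 and 0.272 for Cd34 and 0.115, 0.096, 0.3, 0.0647 and 0.272 for Egfl7. The log2 difference stayed between 0.61 and 0.71 for Cd34 and between 0.48 and 0.55 for Egfl7 over the 15 alternative settings. Gpihbp1 and Dll4 also stayed called without WT replicate 1 and lost the call without each of the other 5 libraries, with limma adjusted p from 0.0505 to 0.242 and from 0.0688 to 0.307. With the pair averaged, 32 members were higher without overlap, where 18.5% of all genes were, and the median difference was 0.38.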

How the data were processed

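RNA of islets was sequenced from 3 WT and 3 bKO samples, grouped by their titles. The deposited values are FPKM. Per the labels and design text, a service provider mapped trimmed reads to the mouse genome and ran Cufflinks on known transcripts only. Per the submitters' processing notes, mm9 was used. Neither the aligner nor any version is stated in these sources. The deposited FPKM are on a linear scale without quantile normalization, and 585 genes are at 0 in some library. The 2 rows with no gene were left out, and 0 sample columns were unmapped. For 4471 genes several transcripts share 1 value.

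Genes above 0 in all 6 libraries were kept, transformed as log2(FPKM + 1), quantile normalized and tested with limma 3.58.1 in R 4.3.3 (eBayes with trend, two-sided). Adjusted p is Benjamini-Hochberg over all genes tested, with a threshold of 0.05. Log2 differences are on this scale, which understates changes of low genes. Means, SD and folds are of deposited FPKM. The members and lists were chosen with earlier results of these data known. Genes are named by a rule. Every member is accounted for, with library values for Pecam1, Cdh5, Vwf, members past the threshold and, in each role, up to 3 with the smallest p and a mean of at least 1 FPKM. Each other vessel, mural and blood list gives up to 3 genes chosen the same way. The members Ecscr, Lyve1, Ramp2, She and Nos3 fall outside this rule, and their library values are given in addition. Acinar, duct and endocrine lists are given as counts and sums.

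Depth was estimated from steps of low FPKM in genes with a single transcript, where 63.3% to 67.9% of values fell within 0.1 of a whole fragment number, so it is approximate. Pairs of libraries were compared over genes with at least 20 fragments. Overlapping genes come from GENCODE on GRCm38, used for names. The fit was tested on simulated data. Figures and sums used Python 3.11.15, numpy 2.4.6, pandas 2.3.3 and matplotlib 3.10.9. The 15 alternatives changed 1 choice each: pseudocount (0.1), quantile step (omitted), scaling (median of ratios, or equal sum without hormones and acinar enzymes), filter (none, or mean FPKM of at least 1), eBayes trend (off), a block on replicate number, leaving out 1 library, or averaging bKO replicates 1 and 3.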

Additional observations from a re-analysis of the deposited data

How the results depend on the processing

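The median log2 difference of the 35 endothelial genes kept its sign in all 15 alternatives and was 0.44 with a pseudocount of 0.1 and 0.44 without quantile normalization. It lay between 0.34 and 0.41 when single libraries were left out. Turning off the eBayes trend or adding the block on replicate number cannot move any log2 difference, so these alternatives bear only on the p-values. Members higher without overlap numbered 29 to 33 in the settings that rescale, filter, average or leave out libraries, where the share of all genes ran from 8.68% to 30.1%, with 27.1% without WT replicate 1 and 30.1% without bKO replicate 2. Calls were less stable. Over all genes, 10 were higher and 21 lower, against 19 and 20 without quantile normalization, 14 and 17 with an equal sum without hormones and acinar enzymes, and 0 and 0 with bKO replicates 1 and 3 averaged. Leaving out a library gave 0 to 23 higher genes, 0 to 27 lower genes and 0 to 2 called members. The numbers of higher and lower genes were 23 and 27 without WT replicate 1, 0 and 3 without WT replicate 2, 0 and 1 without WT replicate 3, 0 and 0 without bKO replicate 1 or 3, and 3 and 6 without bKO replicate 2. Called members numbered 4 without quantile normalization, with Robo4 and She added, and 0 with the pair averaged.

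With the replicate number as a block, 0 genes were higher, 0 lower and 0 members called, and the adjusted p was 0.148 for Cd34 and 0.158 for Egfl7. Deviations of same-numbered libraries correlated at -0.195, 0.0742 and 0.303, and not every library correlated best with its own number. With 3 libraries a group, and bKO replicates 1 and 3 nearly alike, this cannot tell whether the numbers pair the samples. Leaving out single libraries gave Lyve1 a range from -0.13 (without bKO replicate 2) to 0.11, with -0.01 without WT replicate 1. Pf4 ranged from -0.25 to 0.04 (without WT replicate 1) and Angpt2 from -0.21 to 0.05 (without WT replicate 2), with 0.02 without WT replicate 3, and Angpt2 was 0.03 without quantile normalization. The cause was not tested. Low members also moved when a library was left out, Clec14a from 0.09 to 0.05 (without WT replicate 1 or bKO replicate 2) and Tal1 from 0.04 to between 0.01 and 0.09. Clec14a was at about 20 fragments in its lowest library, and its log2 difference was 0.29 with a pseudocount of 0.1.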
